A study of Mus musculus with 8 samples.

Results

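The genes described here are 8 cell adhesion genes of the kidney's mesenchymal-to-epithelial transition: the cadherin genes Cdh1, Cdh2, Cdh3, Cdh4, Cdh6, Cdh11 and Cdh16, and Epcam, which encodes the epithelial cell adhesion molecule. Their probes were found by the RefSeq accession printed with each probe, without its version, and by no measured value. This gave 12 of the 55681 probes on the array, and 8 of the 20887 genes that could be given a symbol. Cdh4 had 3 probes, Cdh2 and Cdh11 had 2 each, and the other genes had 1 each. The Cdh1 probe was printed on 10 spots. Where a gene had several probes, the brightest in Cy5, the red dye, is given first.

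The study compared nephron progenitor cells sorted from C57BL/6 mouse kidneys at embryonic day 15.5. Both groups carried the Six2CreEGFP transgene, whose fluorescent protein was used for the sort. The mutants had floxed alleles of both Hdac1 and Hdac2, the genes of 2 class I histone deacetylases, and the wildtypes had the unfloxed alleles. Each group had 4 pools of cells, and each pool's total RNA was labelled with Cy5 and hybridised beside Cy3-labelled RNA of wildtype pool 1, the reference on all 8 arrays. Six2 drives Cre recombinase in the cap mesenchyme, so the deletion applies to these progenitors and to the cells that derive from them, and the wildtypes carry the same Cre. The labels call the pools biological replicates and say no more about the animals behind them, so p-values measure the spread between these samples, part of which may be technical.

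Cadherins are calcium-dependent adhesion proteins that join a cell to neighbours bearing the same or a related cadherin, and their cytoplasmic tails are held to the actin skeleton by catenins. When nephron progenitors are induced they aggregate, polarise and form the renal vesicle, and the cadherins they carry change in the course of it. Cdh11 and Cdh2 are known from the mesenchyme, Cdh4 and Cdh6 from the early epithelial stages, and Cdh1 from more distal epithelium and from the ureteric bud. Cdh16, the kidney-specific cadherin, belongs to the tubular epithelium, and Epcam to the ureteric bud and to much of the nephron epithelium.

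Some properties of the arrays bear on the values below. Values are log2 ratios of a pool's Cy5 signal over the Cy3 reference, so that 0 means the level of the reference. The array of wildtype pool 1 held the same RNA in both dyes, and its 12 ratios lay between -0.22 and 0.23. These are differences of dye or of measurement, which this array cannot tell apart. Within a group, the Cy5 signals of pools 3 and 4 were as close to each other as Cy3 signals of the one reference on different arrays, so the pair was averaged and counted as 1 sample, and comparisons are between 3 mutant and 3 wildtype samples. For the 12 probes pools 3 and 4 of a group differed by 0.0090 to 0.25, with a median of 0.056. Pool numbers paired the samples, since mutant and wildtype samples of the same number deviated together across all probes, and differences are also given per pair. The mutant 1 array and the wildtype 2 array stood apart: the median SD between different probes of a gene was 0.251 on the mutant 1 array and 0.050 to 0.0902 on the others, and 48627 probes passed Agilent's background flag in Cy5 on the wildtype 2 array, against 28150 to 33982 on the others. Each genotype occupied its own row of slide positions, so row and genotype cannot be told apart. The slide column followed the pool number in both groups, so column and pool number cannot be told apart either. The 3 probes of Hdac1 differed between mutants and wildtypes by -0.30 ± 0.09, -0.57 ± 0.14 and -0.40 ± 0.09 on the log2 scale and that of Hdac2 by -0.13 ± 0.14 (SE), none past the threshold, and whether they lie in the deleted exons was not analysed here.

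All 8 genes were expressed in both groups. Every one of the 12 probes passed the filter, which asked that 3 or more arrays of the 4 in either group have a Cy5 signal well above background, and 11 of them were well above background on all 8 arrays. The exception was the dimmest Cdh4 probe, with 3 of 4 arrays in the mutants and 3 of 4 in the wildtypes. No probe was saturated.

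None of the 12 probes passed the test between mutant and wildtype samples in limma (Benjamini-Hochberg adjusted p from 0.75 to 0.994 over 30364 probes tested), with or without the pool number as a block (smallest adjusted p = 0.225 with it). Across the array 0.0263% of probes passed without the block (0.0132% higher and 0.0132% lower in mutants) and 0.115% with it (0.0198% higher and 0.0955% lower). At an unadjusted p under 0.05, 1 of the 12 passed in either fit, that of Cdh6, against 6.45% of all probes without the block and 11.2% with it. The mutant and wildtype ranges overlapped for all 12, whereas 13.6% of all probes had groups that did not overlap. The first probes of the 8 genes had a median log2 difference, mutant minus wildtype, of -0.06, beside -0.0030 for all probes. The members' data therefore give sizes and intervals rather than calls. In these bulk pools fewer cells with a transcript and less of it per cell cannot be told apart.

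**Figure D1:**
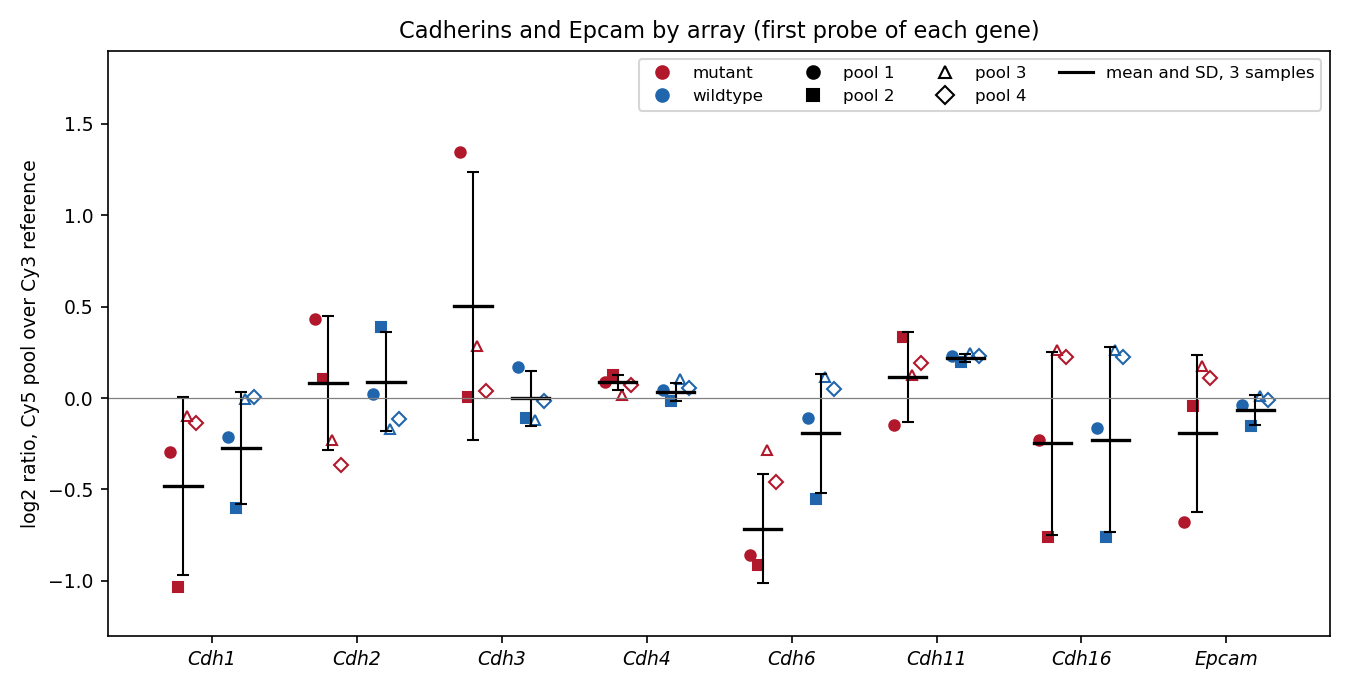
Log2 ratio of each pool's Cy5 signal over the Cy3 reference for the first probe of each gene, mutant pools in red and wildtype pools in blue, with black lines for the mean and SD of the 3 samples per group (pools 3 and 4, open symbols, were averaged to 1 sample). Mutant pool 1 stands away from the other mutant pools for Cdh3 (1.34) and Epcam (-0.68), and the pools of Cdh16 have the same order and nearly the same values in both groups.

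Among the type I, or classical, cadherins, Cdh1 encodes E-cadherin, the main adhesion protein of adherens junctions in epithelia. Its ratios were -0.29, -1.03, -0.10 and -0.14 in mutant pools 1 to 4, and -0.22, -0.60, -0.0050 and 0.0040 in wildtype pools 1 to 4. Pool 2 was the lowest of its group in mutants and in wildtypes alike, and the ranges of the groups overlapped widely. The mutant mean was -0.48 ± 0.49 and the wildtype mean -0.27 ± 0.31 (SD, n = 3 each), a difference of -0.21 ± 0.26 (SE), with a 95% interval from -0.83 to 0.41 and an adjusted p of 0.888 in limma. The 10 spots of this probe differed on an array by an SD of 0.035 to 0.083, far less than the pools did.

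Taken pair by pair, Cdh1 was lower in the mutant sample of each, by 0.08 in pool 1, 0.43 in pool 2 and 0.12 in pools 3 and 4. Of all probes 16.7% were lower in the mutants in all 3 pairs. With the pool number as a block the interval narrowed to -0.48 to 0.06, which in linear terms is 71.6% to 104.6% of the wildtype level. Without mutant pool 2, its wildtype partner kept, the unpaired difference was 0.07, so the sign of the unpaired difference rested on that pool. The pairs of pool 1 and of pools 3 and 4 do not include it and were lower too.

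Cdh3, which encodes P-cadherin, lies next to Cdh1 on chromosome 8, with no protein-coding gene between them in the RefSeq table. Its ratios were 1.34, 0.0043, 0.29 and 0.04 in mutant pools 1 to 4, and 0.17, -0.11, -0.12 and -0.02 in wildtype pools 1 to 4. A single mutant pool, number 1, was far above the other 7 arrays. The difference was the widest upward one of the 8 genes, 0.50 ± 0.33 (SE; 95% interval -0.28 to 1.29, limma adjusted p = 0.873), and without mutant pool 1 it was 0.08. Cdh3 was higher in the mutant sample of all 3 pairs (by 1.17, 0.11 and 0.23), as were 21.5% of all probes.

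Cdh2 encodes N-cadherin, a classical cadherin of mesenchymal and neural cells that is also found in proximal tubules. At the brighter probe its ratios were 0.43, 0.11, -0.23 and -0.37 in mutant pools 1 to 4, and 0.02, 0.39, -0.17 and -0.11 in wildtype pools 1 to 4. The groups shared their range, with pools 3 and 4 lowest in both. The means were 0.08 ± 0.37 in mutants and 0.09 ± 0.27 in wildtypes (SD, n = 3 each), so that the mutant level was 99.4% of the wildtype level, with a 95% interval from 70.0% to 141%. The second probe gave 102% (76.8% to 136%), and its mutant range, from -0.21 to 0.43, took in the whole wildtype range, from -0.08 to 0.27.

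Cdh4 encodes R-cadherin, a classical cadherin of the early nephron epithelium, and its first probe varied least among the first probes of the 8 genes. At the brightest of its 3 probes the ratios were 0.09, 0.13, 0.01 and 0.07 in mutant pools 1 to 4, and 0.04, -0.02, 0.10 and 0.05 in wildtype pools 1 to 4. With pools 3 and 4 averaged, the 6 samples spanned 0.14. The difference was 0.05 ± 0.09 (SE), and its 95% interval, from -0.16 to 0.27, was the narrowest among the first probes. The second probe differed by 0.21 ± 0.16 (SE; interval -0.17 to 0.60), with mutant pool 1 the highest array at 0.63. The dimmest probe differed by -0.0070 ± 0.12 (SE; interval -0.29 to 0.28). All 3 intervals spanned 0, so no direction can be given for Cdh4. The dimmest probe had log2 Cy5 levels of 6.39 to 6.86, against 12.1 to 12.6 for the brightest.

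Of the type II cadherins, Cdh6 encodes K-cadherin, which marks the cells of the renal vesicle that give rise to proximal tubule, and it showed the largest difference of the 8 genes. Its ratios were -0.86, -0.91, -0.28 and -0.46 in mutant pools 1 to 4, and -0.11, -0.55, 0.12 and 0.05 in wildtype pools 1 to 4. The mutant sample was lower in all 3 pairs, by 0.75 in pool 1, 0.36 in pool 2 and 0.45 in pools 3 and 4, but wildtype pool 2 was below the sample of mutant pools 3 and 4, so the groups overlapped. The mutant mean was -0.71 ± 0.30 and the wildtype mean -0.19 ± 0.33 (SD, n = 3 each).

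The Cdh6 difference of -0.52 ± 0.21 (SE) put the mutant level at 69.7% of the wildtype level, with a 95% interval from 49.5% to 98.3%. It did not pass in limma (unadjusted p = 0.0418, adjusted p = 0.75), and an exact two-sided permutation test over the 3 against 3 samples gave p = 0.2, where the smallest it allows is 0.1. With the block the interval was 57.4% to 84.7% (limma unadjusted p = 0.00448, adjusted p = 0.225). Cdh6 was lower in the mutants in all 27 alternative settings run, by 0.32 to 0.70 on the log2 scale, with limma adjusted p from 0.203 to 0.988, so no setting called it. Some settings, such as the block, leave its value at -0.52 by construction. All use the same arrays, so they are not independent results. Leaving out single samples moved it between -0.70 (without wildtype pool 2) and -0.38 (without wildtype pools 3 and 4).

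Promoter stretches from the RefSeq promoter table were examined for 2 of the 8 genes, Cdh6 and Epcam. These 2 were set by which entries were available to the search and not by their differences. Cdh6 is the member with the largest difference, and the interval of Epcam, like those of all other members, spans 0. Promoters of the other genes were not examined here. The 250 bases before the start site are shown, 5′ to 3′, for Cdh6 (GRCm38.p6, chr15:13173676-13173925, minus strand) and Epcam (GRCm38.p6, chr17:87635729-87635978, plus strand). Capitals mark E-boxes, searched as CANNTG, which reads the same on both strands. The Snail and Zeb repressors, known for silencing Cdh1, bind the form CACCTG, which is CAGGTG on the other strand, and this form is one of the E-boxes marked.
Cdh6: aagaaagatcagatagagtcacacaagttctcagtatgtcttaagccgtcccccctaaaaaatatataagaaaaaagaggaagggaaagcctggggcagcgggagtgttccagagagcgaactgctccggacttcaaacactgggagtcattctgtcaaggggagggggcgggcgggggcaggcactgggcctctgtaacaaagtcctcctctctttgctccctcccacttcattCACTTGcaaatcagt
Epcam: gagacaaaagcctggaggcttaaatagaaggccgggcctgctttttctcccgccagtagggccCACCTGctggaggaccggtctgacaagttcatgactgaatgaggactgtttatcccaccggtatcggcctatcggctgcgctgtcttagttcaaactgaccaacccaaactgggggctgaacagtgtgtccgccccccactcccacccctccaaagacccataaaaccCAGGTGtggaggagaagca
The Cdh6 stretch held 1 E-box, CACTTG, and none of the form CACCTG or CAGGTG, and the Epcam stretch held 2, one CACCTG and one CAGGTG. Of 32851 promoter stretches of this length in the table, 66.2% held an E-box and 17.2% held CACCTG or CAGGTG. These matches describe the letters only, and no binding was measured here.

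Cdh11, the other type II member, is a cadherin of mesenchymal cells. At the brighter probe its ratios were -0.15, 0.34, 0.12 and 0.19 in mutant pools 1 to 4, and 0.23, 0.20, 0.25 and 0.23 in wildtype pools 1 to 4. Wildtype pools were almost equal, and mutant pool 1 was the only array below 0. The difference was -0.11 ± 0.14 (SE; 95% interval -0.43 to 0.22, limma adjusted p = 0.889), and it was 0.03 without mutant pool 1.

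The second Cdh11 probe was dimmer and differed the other way, by 0.18 ± 0.21 (SE; interval -0.32 to 0.69). It was higher in the mutant sample of all 3 pairs, by 0.16, 0.28 and 0.12, and with the pool number as a block the interval was -0.04 to 0.41. Here the ratios were 0.24, -0.25, -0.31 and -0.33 in mutant pools 1 to 4, and 0.08, -0.53, -0.41 and -0.47 in wildtype pools 1 to 4. Pool 1 was the highest in both groups. Where on the transcript either probe lies was not analysed here, and the probes give no shared direction for Cdh11.

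Cdh16 encodes a cadherin with a short cytoplasmic tail that is largely restricted to kidney epithelia. Its ratios were -0.23, -0.76, 0.26 and 0.22 in mutant pools 1 to 4, and -0.17, -0.76, 0.26 and 0.23 in wildtype pools 1 to 4. Both groups thus followed the pool number: pool 2 was lowest, pool 1 was intermediate, and pools 3 and 4 were highest. Within a pair the mutant and wildtype samples differed by -0.06 in pool 1, 0.0050 in pool 2 and -0.0017 in pools 3 and 4, while the pool means spanned 1.00.

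The mutant mean of Cdh16 was -0.25 ± 0.50 and the wildtype mean -0.23 ± 0.51 (SD, n = 3 each). The difference was -0.02 ± 0.32 (SE), and the unpaired 95% interval, 58.5% to 166% of the wildtype level, took in the spread between pools. With the pool number as a block the interval was 84.9% to 115%. Leaving out an unpaired sample moved the value between -0.29 (without wildtype pool 2) and 0.23 (without mutant pool 2), and leaving out whole pairs in the blocked fit moved it between -0.03 and 0.0016.

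Epcam encodes a surface glycoprotein of epithelial cells that is not a cadherin. Its ratios were -0.68, -0.05, 0.17 and 0.11 in mutant pools 1 to 4, and -0.04, -0.16, 0.01 and -0.01 in wildtype pools 1 to 4. Mutant pool 1 was low and the other 7 arrays lay close together. The means were -0.19 ± 0.43 in mutants and -0.06 ± 0.08 in wildtypes (SD, n = 3 each), a difference of -0.13 ± 0.21 (SE; 95% interval -0.62 to 0.36, limma adjusted p = 0.911). Without mutant pool 1 the difference was 0.11, so its direction rested on that pool.

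**Figure D2:**
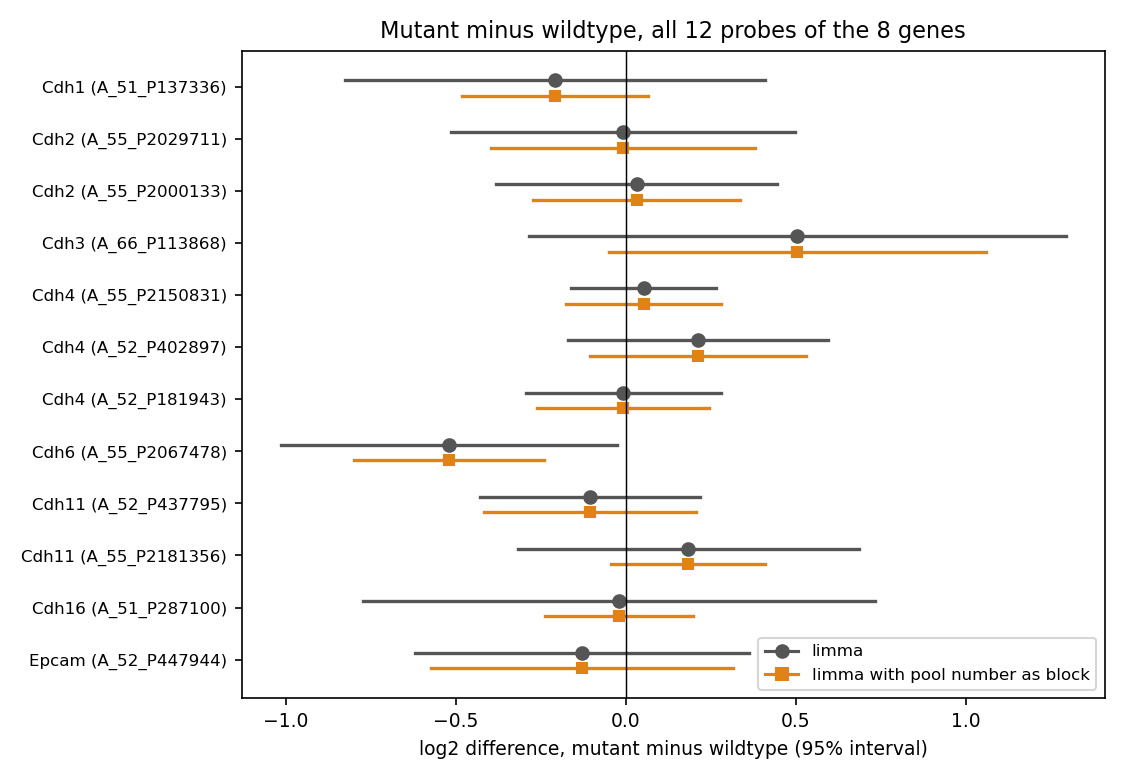
Log2 difference, mutant minus wildtype, with its 95% interval for each of the 12 probes, in limma without (grey circles) and with (orange squares) the pool number as a block. Only the intervals of Cdh6 lie wholly below 0 (-1.01 to -0.03 without the block, -0.80 to -0.24 with it), and the Cdh16 interval narrows most, to -0.24 to 0.20.

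How far a gene followed the pool number rather than the genotype differed between the members. The pool number held 99.8% of the sum of squares of Cdh16 over the 6 samples, and 85.9% of that of Cdh1, beside a median of 51.3% over all probes. The second Cdh11 probe was at 87.4%. Genotype held 0.06% for Cdh16 and 9.01% for Cdh1, and the most for Cdh6, at 50.8%, beside a median of 14.6% over all probes. For the first Cdh4 probe, whose total spread was small, the pool number held 1.1% and the remainder 65.6%. A moderated F test of the pool number, added after the values were seen, called 0 of the 12 probes after adjustment (Cdh16, limma adjusted p = 0.11) and 0.0856% of all probes.

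The pool order of Cdh16 and Cdh1 was also that of the proximal tubule markers, whose mutant samples had lower medians than their wildtype partners while the ranges overlapped. Over 10 proximal tubule markers (Hnf4a, Lrp2, Cubn and others) the median log2 ratio was -1.06, -2.17 and -0.63 in the mutant samples of pools 1, 2 and 3 and 4, and 0.06, -1.50 and 1.04 in the wildtype samples. Pool 2 was lowest in both groups, as for Cdh16, and each mutant sample lay below its wildtype partner, as for Cdh6. The same order and sign were found for the loop of Henle and distal tubule markers (-0.94, -1.37 and -0.63 in mutant samples, 0.02, -0.70 and 0.46 in wildtype samples) and for the podocyte markers (-0.85, -1.24 and -0.25 in mutant samples, 0.06, -0.62 and 0.43 in wildtype samples). None of the 10 proximal tubule markers passed in limma without the block, and 1 was lower with it. For 7 of the 10 the probe was well above background on all arrays, and Slc34a1, Slc5a2 and Spp2 were not on every array. The ureteric bud and collecting duct markers, of which all 10 were well above background on all arrays, had medians of 0.10, -0.19 and 0.07 in the mutant samples and -0.02, -0.33 and 0.02 in the wildtype samples. The interstitial stroma, leukocyte and mesenchymal lists described below also had pool 2 lowest and pools 3 and 4 highest in both groups. The order was thus not particular to the nephron markers. What part any of these cells have in the cadherin values was not tested.

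**Figure D3:**
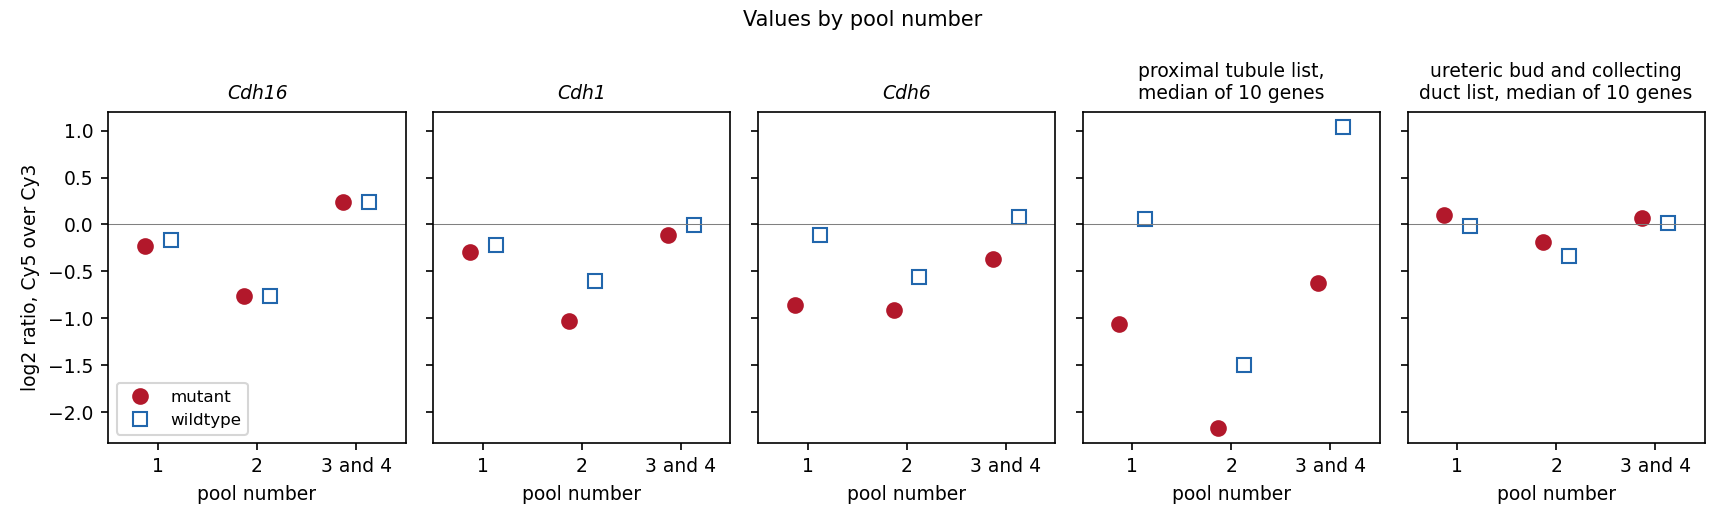
Log2 ratio over the Cy3 reference by pool number for Cdh16, Cdh1 and Cdh6 and for the medians of 10 proximal tubule and 10 ureteric bud and collecting duct markers, mutant samples as red circles and wildtype samples as blue squares. For Cdh16 the mutant sample differs from its wildtype partner by -0.06 in pool 1 and by less in the other pools, whereas the mutant sample is below its wildtype partner in every pool for Cdh6 and for the proximal tubule median.

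Markers of the sorted cells and of other kidney cell types gave signal in both groups, and no share of cells was measured. Nephron progenitor markers, Six2 and Cited1 among them, were well above background on all arrays at 11 of 11 genes, and 1 of them, the progenitor gene Cited1, fell by 2.72 on the log2 scale in the mutants, in limma with or without the block (adjusted p = 0.00355 without it). Their median log2 difference was -0.29 (-0.11 without wildtype pool 2), and that of 11 pretubular aggregate and renal vesicle markers was -0.40, with sample medians of -0.38, -0.52 and -0.27 in mutants and 0.06, -0.31 and 0.0020 in wildtypes. Median differences were 0.25 for 11 interstitial stroma markers, 0.27 for 9 endothelial, 0.01 for 7 leukocyte and 0.18 for 5 erythroid markers, all of which were well above background on all arrays and none of which passed. Without wildtype pool 2 the endothelial median was 0.11, the leukocyte median -0.08 and the erythroid median 0.049, and without mutant pool 2 the erythroid median was 0.39. Median differences were -1.03 for 8 loop of Henle and distal tubule markers, of which 2 were lower with the block, and -0.61 for 7 podocyte markers, of which none passed. Cdh11, a stroma gene as well as a mesenchymal one, differed by -0.11 at its brighter probe (0.03 without mutant pool 1). The other Cdh11 probe differed by 0.18, with all 3 pairs higher in mutants, as for 21.5% of all probes. The stroma markers had sample medians of 0.33, 0.09 and 0.43 in mutants and 0.04, -0.08 and 0.09 in wildtypes.

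For the 3 members that spanned at least 1 log2 unit over the 6 samples, the genes of most similar profile were looked up among 14812 genes by the root mean square (RMS) difference of the log2 ratios. Cdh16 was closest to Chchd10, a mitochondrial protein gene (RMS 0.074), Myl9, a myosin light chain gene (0.085), and Nt5e, which encodes the surface enzyme CD73 (0.116). The pool order of Cdh16 can be read from Nt5e, which had -0.26, -0.82 and -0.00035 in the mutant samples of pools 1, 2 and 3 and 4, and -0.07, -0.70 and 0.18 in the wildtype samples. Cdh1 was closest to the kinesin gene Kif12 (0.104), Galnt18, a glycosyltransferase gene (0.134), and the protease gene Lgmn (0.138). Kif12 read -0.41, -1.02 and -0.21 in mutants and -0.18, -0.54 and 0.20 in wildtypes, with pool 2 lowest in both groups. Cdh3 was closest to the heparan sulfate proteoglycan gene Gpc3 (0.097), the imprinted noncoding RNA Kcnq1ot1 (0.098) and the receptor gene Gpr153 (0.152), and each of these was above 1 in mutant pool 1 only, at 1.16, 1.50 and 1.12. Cdh6 spanned 0.99 and was not looked up.

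Transcripts for the proteins that hold cadherins to the cell skeleton were measured as well. Of 20 genes of catenins and the adherens junction, 19 were measured, and 0 passed in limma with or without the block. At an unadjusted p under 0.05 without the block 0 passed, against 6.45% of all probes. The mutant mean was higher for 11 and lower for 8, with a median difference of 0.05. Beta-catenin, Ctnnb1, which binds the cadherin tail, read -0.59, -0.0023 and 0.02 in the mutant samples of pools 1, 2 and 3 and 4, and 0.05, 0.10 and 0.14 in the wildtype samples. All mutant samples were below all wildtype samples, with most of the distance in pool 1, and 13.6% of all probes had groups that did not overlap. The difference was -0.29 ± 0.17 (SE, limma adjusted p = 0.872). Alpha-catenin, Ctnna1, which links beta-catenin to actin, differed by -0.18 ± 0.13, Ctnnd1, the p120 catenin gene, by 0.12 ± 0.15 and Jup, the plakoglobin gene, by 0.08 ± 0.14 (SE).

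Of 30 other cadherin superfamily genes 29 were on the array and 20 were measured, and 0 passed in limma. At an unadjusted p under 0.05, 5 of the 20 passed, against 6.45% of all probes. In the mutants 10 were higher and 10 lower, with a median of 0.0032. The atypical cadherin Fat4, which acts in stroma and progenitors of the kidney, read 0.25, 0.43 and 0.40 in mutant samples and 0.05, -0.08 and -0.13 in wildtype samples, a difference of 0.41 ± 0.10 (SE, limma adjusted p = 0.428) without overlap. Cdh13, a cadherin anchored to the membrane by a lipid, read -0.19, -0.49 and -0.49 in mutant samples and 0.15, 0.28 and -0.05 in wildtype samples, a difference of -0.51 ± 0.14 (SE, limma adjusted p = 0.476), also without overlap. Celsr3 (0.76 ± 0.18, not well above background on every array), Cdhr1 (-0.56 ± 0.14) and Fat1 (0.35 ± 0.12, SE) were without overlap too. No other measured gene of the list was. Of all probes, 13.6% had groups that did not overlap. The endothelial cadherin Cdh5 differed by 0.49 ± 0.25 and the brush border protocadherin Cdhr5 by -0.15 ± 0.23 (SE).

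Transcription regulators that repress or maintain the epithelial state had 19 of 20 genes measured, and 0 passed in limma. At an unadjusted p under 0.05, 4 of the 19 passed, against 6.45% of all probes. In the mutants 12 were higher and 7 lower, with a median of 0.11. The repressor gene Snai2 read 0.51, 0.26 and 0.47 in mutant samples and 0.09, 0.00050 and 0.20 in wildtype samples, a difference of 0.32 ± 0.11 (SE, limma adjusted p = 0.658). All mutant samples were above all wildtype samples, and 13.6% of all probes had groups that did not overlap. Zeb1 and Zeb2, repressors of Cdh1, differed by -0.12 ± 0.18 and 0.23 ± 0.19, and Grhl2 and the splicing factor gene Esrp1, which are active in epithelia, by 0.28 ± 0.26 and 0.22 ± 0.12 (SE).

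The wider epithelial list had all 27 genes measured, and 0 passed in limma. At an unadjusted p under 0.05, 1 of the 27 passed, against 6.45% of all probes. In the mutants 16 were higher and 11 lower, with a median of 0.04. The keratin gene Krt8 read -1.13, 0.03 and 0.53 in mutant samples and -0.10, 0.02 and 0.24 in wildtype samples. Mutant pool 1 was the lowest, as for Epcam, but the other mutant samples of Krt8 also lay apart. Its partner Krt18 differed by 0.30 ± 0.17, and the claudin genes Cldn6 and Cldn7 by -0.19 ± 0.16 and 0.17 ± 0.19 (SE). Of 15 mesenchymal genes 0 passed in limma. At an unadjusted p under 0.05, 4 of the 15 passed, against 6.45% of all probes. In the mutants 11 were higher and 4 lower, with a median of 0.23. This median was 0.049 without wildtype pool 2, 0.11 without mutant pools 3 and 4 and 0.43 without mutant pool 2. The list shares genes with the stroma markers, whose median was 0.25. Vimentin, Vim, an intermediate filament of mesenchyme, differed by 0.01 ± 0.15, the matrix gene Fn1 by 0.38 ± 0.15 and the adhesion gene Ncam1 by -0.09 ± 0.10 (SE).

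**Figure D4:**
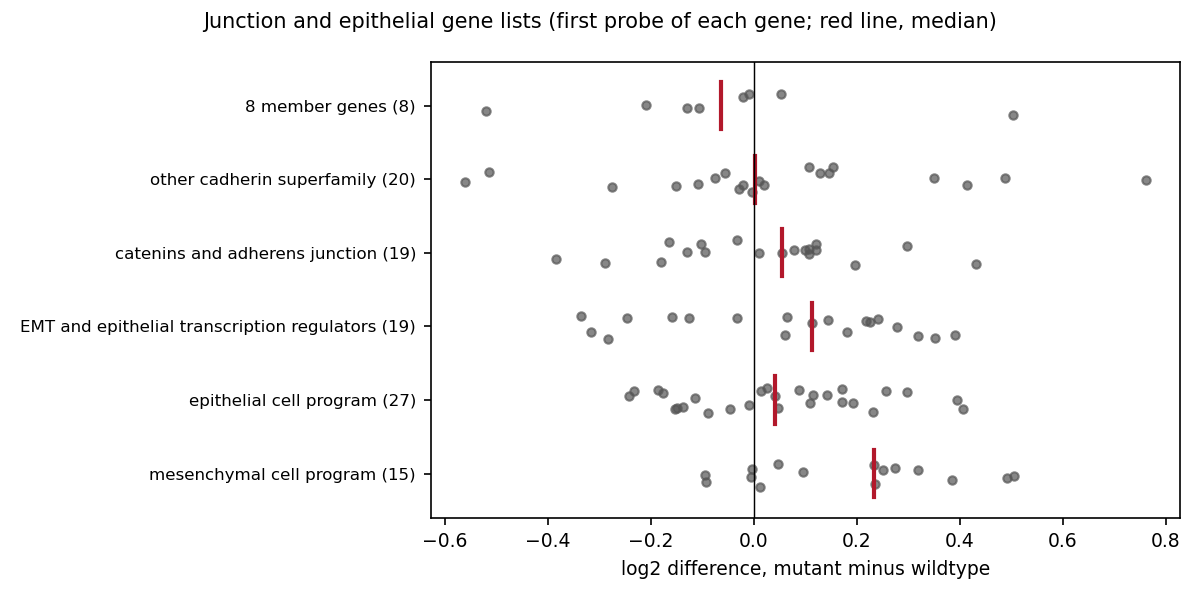
Log2 difference, mutant minus wildtype, of the first probe of each measured gene (grey points; vertical position within a row has no meaning) in the 8 genes described here and in 5 lists of junction, epithelial and mesenchymal genes, with the list median in red. Medians lie between -0.06 and 0.23, and no point passed the limma threshold.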

How the data were processed

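The 8 arrays, 4 mutant and 4 wildtype pools, were Agilent 2-colour arrays. The authors deposited scanner files of spot intensity, written, per the file headers, by version 10.7.3.1 of Agilent Feature Extraction, with background and saturation flags, and a table of log10 ratios of Cy5 over Cy3 that matched those files (r of at least 0.999999). In R 4.3.3, limma 3.58.1 corrected median spot signals by normexp with an offset of 50 and then applied loess to each array. Control and outlier spots had weight 0, and spots of a probe were averaged. Of 55681 probes, 30364 passed the filter and were fitted together (lmFit and eBayes, two-sided, threshold 0.05 after Benjamini-Hochberg). Precision is limited by how many arrays there are. Symbols came from RefSeq accessions (GRCm38.p6), with 27509 probes named. For probes at a log2 level of 10 to 12, pools 3 and 4 differed in Cy5 by a median absolute deviation of 0.0893 in mutants and 0.0841 in wildtypes, within the 0.0677 to 0.116 between Cy3 channels of different arrays, the wildtype 2 array left out. The other Cy5 pairs differed by 0.162 to 0.592. Same-numbered samples deviated together (r = 0.516, 0.523 and 0.507 for pools 1, 2 and 3 and 4), so the pool number was taken to pair them, from the data and not a label. Members, lists and tests were chosen with earlier results of these data known. Named genes were the members, fixed names and called genes of each list, and the 3 most similar profiles; 1 fixed name is not reported here. Alternatives covered signals, background, scaling, filter, probes per gene, variance model, array weights, the block and left-out replicates. Fits were tested on simulated data.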

Additional observations from a re-analysis of the deposited data

How the results depend on the processing

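Small effects were not detectable with 3 samples a group. The printed 95% intervals are not adjusted for the 30364 probes tested, so an interval clear of 0 need not be a call, as for Cdh6. None of the 12 member probes was called in any of the up to 27 alternatives that included it, and Cdh3 and Cdh6 kept their direction in all of them. Some alternatives cannot move a probe's value, and all use the same arrays, so a kept direction is not independent support. The number of probes called on the array, 8, was 35 with the replicate block, 254 with 8 arrays as separate samples, 117 with array weights, 4 with spike-in centring, 4 with the filter on all 8 arrays, 4 with a trended, robust variance and 0 with Cy5 alone. Leaving out single samples gave 0 (without wildtype pool 1) to 10, with 3 without wildtype pool 2, 1 without mutant pools 3 and 4 and 1 without wildtype pools 3 and 4. Within the blocked fit, alternatives added after the data were seen gave 5 without pool 1, 16 without pool 2 and 2 without pools 3 and 4. The block called none of the members.

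Spike-in centring moved the median of all probes to -0.18 and Cy5 alone moved it to 0.15. With spike-ins the first Cdh4 probe was at -0.12 and the second Cdh2 probe at -0.14, and relative to that median they were at 0.05 and 0.03. With Cy5 alone the second Cdh2 probe was at -0.027, the dimmest Cdh4 probe at 0.38, the first Cdh11 probe at 0.090 and Cdh16 at 0.080, and relative to that median at -0.17, 0.23, -0.06 and -0.07. The dimmest Cdh4 probe was at 0.061 with the scanner's processed signals, 0.0011 with 8 separate arrays and 0.056 with array weights. The second Cdh2 probe was at -0.013 with 8 separate arrays and -0.10 with array weights, and Epcam at 0.077 with array weights.

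Leaving out single arrays moved Cdh1 between -0.37 and 0.067, the first Cdh2 probe between -0.19 and 0.14, the second between -0.11 and 0.11, the dimmest Cdh4 probe between -0.045 and 0.094, the first Cdh11 probe between -0.22 and 0.026, Cdh16 between -0.29 and 0.23 and Epcam between -0.20 and 0.11. Without the averaged sample of mutant pools 3 and 4, Cdh1 was at -0.39, the Cdh2 probes at 0.18 and 0.20, the dimmest Cdh4 probe at -0.073 and Epcam at -0.30. Without wildtype pools 3 and 4 the second Cdh2 probe was at -0.048, the dimmest Cdh4 probe at 0.042 and Cdh16 at 0.22. Without the mutant 1 and wildtype 2 arrays together, also added after the data were seen, the second Cdh2 probe was at -0.036, the second Cdh4 probe at -0.043, the dimmest at 0.061, the Cdh11 probes at 0.014 and -0.11 and Epcam at 0.068. In the blocked fit without pool 1 the second Cdh2 probe was at -0.11, the dimmest Cdh4 probe at 0.077, the first Cdh11 probe at 0.030, Cdh16 at 0.0016 and Epcam at 0.13. The first Cdh2 probe was at 0.13 in the blocked fit without pool 2 and 0.065 without pools 3 and 4. The cause of these changes was not tested.

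List medians moved with single samples, wildtype pool 2 among them. Without a sample they ranged from -0.33 to -0.11 for nephron progenitor, -0.46 to -0.28 for renal vesicle, -1.86 to -0.59 for proximal tubule, -1.38 to -0.71 for loop and distal tubule, -0.91 to -0.36 for podocyte, 0.026 to 0.23 for ureteric bud, 0.22 to 0.31 for stroma, 0.11 to 0.36 for endothelium, -0.15 to 0.14 for leukocyte and 0.047 to 0.39 for erythroid markers. They ranged from -0.017 to 0.073 for other cadherins, -0.027 to 0.069 for catenins, 0.027 to 0.15 for regulators, -0.066 to 0.17 for epithelial and 0.049 to 0.43 for mesenchymal genes. Spike-in centring gave -0.46 for nephron progenitor, 0.077 for stroma, 0.10 for endothelium and 0.059 for mesenchymal genes, against the -0.18 of all probes.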
